A study of Mus musculus with 28 samples.

Results

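L1Md_A is a family of LINE-1 retrotransposons, and its members were taken as every row that the deposited repeat annotation names L1Md_A. There were 16215 such rows (integrants) among 3404964 transposable element integrants in all. Their length ran from 11 to 9892 bp with a median of 995 bp, and 3253 were 5 kb or longer, a length that can hold most of an element. Reads were summed over the 16 RNA-seq libraries: 6547 integrants had no read, 5890 had 1 to 15 reads, and the 3778 with 16 or more were tested, of which 2546 were 5 kb or longer. The members were also divided by overlap with deposited lists of KAP1 regions and H3K9me3 regions. The same lists served for all genotypes, and no sample maps KAP1 in the knockout cells. Bound therefore means overlap with the list. The annotation cut many elements into several rows, so that rows on the same strand at most 10 bp apart formed 13199 chains.

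LINE-1 elements copy themselves through an RNA intermediate that serves both as the messenger for their proteins and as the template for a new insertion. A full-length mouse element starts with a promoter built of tandem repeats called monomers, followed by ORF1, which codes for an RNA-binding protein, and ORF2, which codes for an endonuclease and reverse transcriptase. L1Md_A is among the families that are still active in the mouse. KAP1, the product of Trim28, is a corepressor that is brought to DNA by KRAB zinc finger proteins and that recruits the enzyme that lays down H3K9me3, a mark of heterochromatin. DNA methylation is a further layer of LINE-1 repression, and the TET enzymes oxidise 5-methylcytosine to 5-hydroxymethylcytosine (5hmC).

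The cells were naive mouse embryonic stem cells in 2i medium with LIF, of J1 origin (129S4/SvJae). They were wild-type, DNMT TKO (lacking Dnmt1, Dnmt3a and Dnmt3b) or TET TKO (lacking Tet1, Tet2 and Tet3). Each was transduced with the empty vector shEmpty or with shKap1, a hairpin against Trim28, selected with puromycin and collected after 5 days. Stranded RNA-seq was done in 3 wild-type, 3 DNMT TKO and 2 TET TKO samples per hairpin. Each genotype is represented by a single line, so genotype and line cannot be told apart. The study's methods describe the replicates as coming from independent experiments. Gene reads per library ranged from 18108431 to 29373696 and L1Md_A reads from 3947 to 41897. In shEmpty replicate 2 of TET TKO, 8956580 reads fell on all annotated repeats, against 1554298 to 2716458 in the other libraries, while its reads on transposable elements were within their range. Trim28 was at 1752 ± 207 CPM (read counts scaled to the gene reads of each library, SD, n = 3) in wild-type shEmpty and at 165 ± 21.9 in shKap1. In DNMT TKO it went from 1868 ± 197 to 427 ± 91.5 CPM (n = 3), and in TET TKO from 1835 ± 89.8 to 166 ± 3.84 CPM (n = 2). The remaining Trim28 was thus higher in DNMT TKO, and the difference in knockdown between DNMT TKO and wild-type was 1.28 ± 0.21 on the log2 scale (SE, adjusted p = 0.00083, where 7.14% of genes were called). Its part in the DNMT TKO results was not tested.

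The KAP1 regions on L1Md_A of 5 kb or more shared a short sequence. Among all runs of 30 bases, read along the strand of the element, the most frequent in these regions was found without mismatch in 1882 of 2281 of them (82.5%). It is given here with the closest match in the promoter side of 5 integrants described below, with bases that differ from it in capitals.

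shared promoter sequence: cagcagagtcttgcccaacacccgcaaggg
integrant 4, chr6:66959404-66959433, minus strand: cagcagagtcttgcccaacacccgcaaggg
integrant 19, chr19:39323101-39323130, minus strand: GCgAGCGgAGttgccTGacacccgcaaggg
integrant 12, chr7:11948985-11949014, minus strand: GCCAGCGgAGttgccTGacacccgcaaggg
integrant 16, chr7:30416207-30416236, plus strand: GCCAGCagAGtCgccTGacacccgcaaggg
integrant 18, chr2:95100900-95100929, minus strand: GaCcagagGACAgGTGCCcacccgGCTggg

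These lines show an element with the sequence and 4 with no counted copy of it. In those 4 the closest stretch differed at 10 to 14 bases. Mismatches were counted without gaps, so a variant of the repeat with inserted or lost bases counts as no copy. In integrants 12, 16 and 19 the stretch ends with the same bases as the shared sequence. In the families with few or no counted copies, the closest stretch differed at a median of 13 or 14 bases. Coordinates are those of mouse build mm9, and the sequence was read from that genome. Copies with at most 4 mismatches and no gap were counted in the first 3 kb of each chain on the element's own strand. The distance between neighbouring copies was 208 bp in 3168 of 4111 cases, the spacing of a tandem repeat. In this count 2397 of 3138 L1Md_A rows of 5 kb or more lay in a chain with a copy. To compare families, the first 3 kb of each row itself was searched. A copy was then present in 76.0% of the L1Md_A rows of 5 kb or more that could be read, against 4.33% of L1Md_T, 0.409% of L1Md_F2, 0.138% of L1Md_F3, and none of 111 L1Md_Gf or 166 L1Md_F rows. Since the sequence was chosen on L1Md_A, its higher share there follows in part from the choice. A copy without mismatch was in 1869 of 2270 chains with a KAP1 region and in 244 of 863 without.

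KAP1 regions were found on most long L1Md_A integrants, at their 5′ end. Of the 3253 integrants of 5 kb or more, 2292 overlapped a KAP1 region (70.5%, 95% exact binomial interval 68.9 to 72.0%). The interval takes rows as independent and does not cover variation between KAP1 experiments. The share was 23.4% for L1Md_T, 16.7% for L1Md_Gf, 27.7% for L1Md_F, 13.3% for L1Md_F2 and 4.38% for L1Md_F3 of the same length. Among shorter L1Md_A rows it was 4.41%. By length it was 1.91% under 500 bp and 1.78% at 500 to 1000 bp, and above 1 kb it was higher in each longer class, with 9.57% at 1 to 2 kb, 25.0% at 4 to 5 kb, 64.8% at 5 to 6 kb and 97.3% (110 of 113) at 7 kb or more. Regions were narrow, with a median width of 761 bp, and 2276 of the bound long integrants had exactly 1. The centre of the region lay a median of 277 bp from the 5′ end of the integrant (quartiles 194 and 397 bp), and 96.3% of 2309 pairs had it in the first 1 kb. The median distance was 307 bp for L1Md_T and 235 bp for L1Md_F, so this placement was seen in other LINE-1 families as well.

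**Figure D1:**
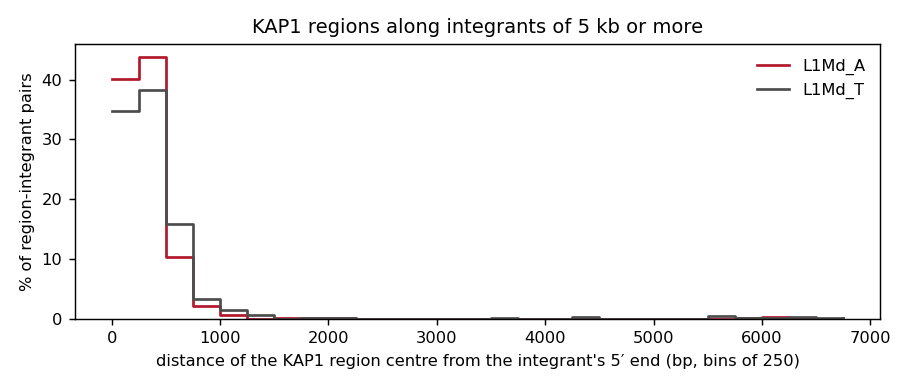
Share of pairs of a KAP1 region and an integrant of 5 kb or more (y axis, percent) by distance of the region's centre from the 5′ end of the integrant (x axis, bins of 250 bp), for L1Md_A and L1Md_T. Both families have their regions near the 5′ end, with medians of 277 and 307 bp. Centres upstream of the 5′ end, 44 for L1Md_A and 45 for L1Md_T, are not drawn.

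The H3K9me3 regions overlapped 1460 of the long L1Md_A integrants (44.9%), and 1458 of these overlapped regions that the deposited list gives as dependent on KAP1. Of the 2292 KAP1-bound long integrants, 1376 also had H3K9me3. Of the 961 long integrants with no KAP1 region, 84 had H3K9me3. H3K4me3, a mark of active promoters, was rare on them: peaks present in both wild-type ChIP-seq replicates overlapped 26 long L1Md_A integrants. The deposited H3K4me3 region list covered 0.799% of long L1Md_A against 51.2% of long L1Md_T and 64.9% of long L1Md_Gf. Peaks of H3K27me3, the Polycomb mark, met 42 and 104 long L1Md_A integrants in its 2 replicates, and 13 in both.

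KAP1 and H3K9me3 overlap varied with the number of copies of the shared promoter sequence. With 0 copies, 31.7% of 741 long integrants overlapped a KAP1 region, and with 1 copy 53.6% of 604 did. The share was 90.5% with 2 copies, 98.4% with 3 and 99.1% with 4 or more. H3K9me3 overlap was 23.6% and 21.0% with 0 and 1 copies and went to 46.9%, 68.6% and 86.5% with 2, 3 and 4 or more. Since the sequence was itself found in the KAP1 regions, the KAP1 shares are a description. Length changed alongside, with a median of 5510 bp at 0 copies and 6618.5 bp at 4 or more. Bound chains were also the more intact: both reading frames, ORF2 at nearly its full length and an upstream ORF1 of at least 330 codons, were open in 32.7% of 2270 bound chains and 10.1% of 863 unbound chains. The first 1 kb held a median of 3.5 CpG per 100 bp in bound and 2.1 in unbound chains.

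The summed L1Md_A reads rose on Kap1 knockdown in all 3 genotypes. Wild-type shEmpty libraries held 299.9, 256 and 260.0 CPM, and shKap1 libraries held 599, 712 and 718. DNMT TKO libraries held 463, 413 and 433 CPM with shEmpty and 1465, 1861 and 1554 with shKap1. TET TKO libraries held 145 and 148 CPM with shEmpty and 1012 and 984 with shKap1. No shKap1 library overlapped the shEmpty libraries of its genotype. The log2 fold change was 1.32 ± 0.10 in wild-type (SE, adjusted p = 9.9e-08), 1.90 ± 0.10 in DNMT TKO (2.7e-09) and 2.77 ± 0.12 in TET TKO (1.2e-09). By this adjusted p, 56.2%, 60% and 58.3% of the 3110 summed families changed in the same contrasts. The median family itself moved by 1.21, 1.39 and 1.47 under this scaling to gene reads. With scaling to the repeat counts, the L1Md_A changes were 0.63, 1.05 and 1.72. In these bulk samples, more cells with a transcript and more RNA per cell cannot be told apart.

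**Figure D2:**
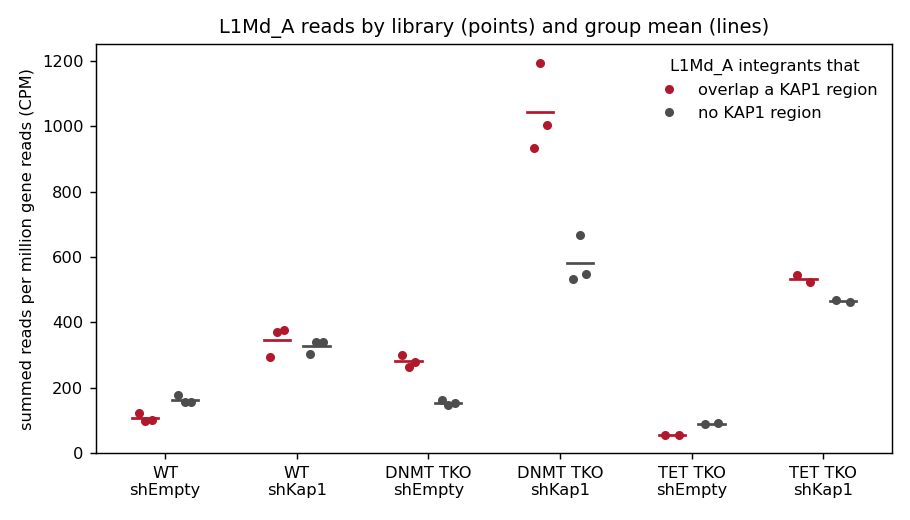
Summed L1Md_A reads per library (points, y axis in CPM from 0) and group means (lines) for the 6 groups on the x axis, split by overlap with a KAP1 region. KAP1-bound integrants are the smaller sum in wild-type shEmpty and the larger in DNMT TKO shEmpty, 108 against 282 CPM on average.

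The size of the rise differed between genotypes. The difference from wild-type was 1.45 ± 0.15 on the log2 scale in TET TKO (adjusted p = 0.00011) and 0.58 ± 0.13 in DNMT TKO (adjusted p = 0.017), where 8.71% and 9.1% of all families passed. The DNMT TKO difference lost its call with scaling to repeat counts (0.42, adjusted p = 0.10), without shKap1 replicate 1 of wild-type (0.46, adjusted p = 0.051) and without shEmpty replicate 2 of TET TKO (0.54, adjusted p = 0.055). In shEmpty cells, L1Md_A reads were higher in DNMT TKO than in wild-type by 0.68 ± 0.10 (adjusted p = 0.00019) and lower in TET TKO by -0.89 ± 0.11 (adjusted p = 0.00013), with 23.4% and 13.6% of families past the threshold. These contrasts share the wild-type shEmpty libraries.

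L1Md_A differed from L1Md_T and L1Md_Gf, the other young families, in some contrasts and not in others. Without the DNA methyltransferases, in shEmpty cells, L1Md_T fell by 2.17 and L1Md_Gf fell by 2.53 on the log2 scale. The change of L1Md_A minus that of L1Md_T was 2.85 ± 0.12 and minus that of L1Md_Gf 3.17 ± 0.13 (limma on ratios within libraries, adjusted p = 3.6e-14 and 9.8e-16). On Kap1 knockdown in wild-type cells, L1Md_T gave 0.14 ± 0.14 and L1Md_Gf -0.08 ± 0.09, neither past the test. The L1Md_A change exceeded theirs by 1.17 ± 0.12 and 1.39 ± 0.13 (adjusted p = 2.1e-08 and 1.1e-09). In TET TKO knockdown it exceeded theirs by 1.76 ± 0.15 and 1.52 ± 0.15 (adjusted p = 1.7e-10 and 1.5e-09). In DNMT TKO knockdown the differences were -0.15 ± 0.12 and -0.06 ± 0.13 (adjusted p = 0.25 and 0.64). For TET TKO against wild-type in shEmpty cells they were 0.08 ± 0.13 and 0.50 ± 0.14 (adjusted p = 0.56 and 0.0021). The 2 TET TKO shEmpty libraries lay apart in L1Md_T, at 825 CPM in replicate 1 and 1324 in replicate 2. The L1Md_T comparisons of 0.08 and 1.76 rest in part on them. The knockdown change also differed from wild-type in other LINE-1 families. In TET TKO the difference was 1.34 in L1Md_Gf, 0.82 in L1Md_T, 0.79 in L1Md_F, 0.62 in L1Md_F3 and 0.46 in L1Md_F2. In DNMT TKO it was 2.07, 1.90, 0.75, 0.22 and 0.33 in the same order, the 0.22 not past the test. The L1Md_A values were 1.45 and 0.58.

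At the level of single integrants, nearly all calls (adjusted p below 0.05 and at least 2-fold) on knockdown were rises. Integrants were kept by reads summed over all libraries. The shKap1 libraries held 11427 to 41897 L1Md_A reads and the shEmpty libraries 3947 to 11957. Integrants could pass the filter through the libraries where they were high, which favours calls of rises and can raise the median change. The same filter applied to all elements. In wild-type 696 of 3778 integrants rose and 11 fell, against 12.1% of all tested transposable elements rising and 2.05% falling. In DNMT TKO 1829 rose and 1 fell, with 15% of all elements rising and 0.944% falling. In TET TKO 1185 rose and 2 fell, with 14.7% rising and 0.971% falling. The shares of L1Md_A integrants called higher were 18.4%, 48.4% and 31.4%, and the median log2 changes 1.61, 2.06 and 2.90 against 0.23, 0.27 and 0.33 over all elements. With the DESeq2 Wald test, 328, 634 and 484 integrants were called in the 3 knockdowns over both directions, against 707, 1830 and 1187 with edgeR. The number in TET TKO rests on 2 libraries per group: without shEmpty replicate 1 or 2 its total of 1187 went to 620 or 663. The wild-type total of 707 went to 466 without shEmpty replicate 3. Every shKap1 library lay above every shEmpty library for 26.4% of integrants in wild-type, 59.7% in DNMT TKO and 66.7% in TET TKO, against 18.7%, 21.4% and 33.7% of all elements. In shEmpty cells, 524 integrants were higher in DNMT TKO than in wild-type and 151 lower, where 3.48% and 6.45% of all elements were called. TET TKO had 12 higher and 83 lower, against 1.74% and 2.33%. The DNMT TKO total of 675 went to 438 or 434 without shEmpty replicate 2 or 3 of wild-type, and the TET TKO total of 95 to 33 or 31 without shEmpty replicate 1 or 2 of TET TKO. With the DESeq2 Wald test these totals were 280 and 21. The knockdown change itself differed from wild-type for few integrants. In DNMT TKO it was larger for 77 and smaller for 20, against 1.33% and 0.473% of all elements, and in TET TKO larger for 39 and smaller for 2, against 0.831% and 0.242%. As shares of the L1Md_A integrants tested these were 2.04% and 0.529%, and 1.03% and 0.0529%, so that in TET TKO the share with a larger change was near that of all elements and the share with a smaller change was below it. The TET TKO total of 41 went to 13 or 12 without shEmpty replicate 1 or 2 of TET TKO, to 22 without shKap1 replicate 1 of TET TKO and to 24 without shEmpty replicate 2 of wild-type. The DNMT TKO total of 97 went to 61 without shEmpty replicate 2 of DNMT TKO. With the DESeq2 Wald test the totals were 10 in TET TKO and 22 in DNMT TKO.

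KAP1-bound integrants responded more than unbound ones in wild-type and TET TKO cells. Bound integrants went from 108 ± 12.5 to 348 ± 46.4 CPM in wild-type (SD, n = 3), and unbound ones from 164 ± 12.0 to 329 ± 21.0. In TET TKO bound integrants went from 55.6 ± 0.77 to 533 ± 15.5 CPM (n = 2) and unbound ones from 91.0 ± 1.53 to 465 ± 4.36. The unbound integrants thus rose as well, by 1.00 ± 0.08 in wild-type and 2.35 ± 0.10 in TET TKO. Under the same scaling to gene reads, the median family moved by 1.21 and 1.47. The difference bound minus unbound was 0.68 ± 0.15 on the log2 scale in wild-type (limma, adjusted p = 0.0007) and 0.90 ± 0.18 in TET TKO (adjusted p = 0.00038). Of 743 families with both kinds, 60.4% and 54.6% passed. In wild-type the difference was 0.76 in L1Md_F, 0.71 in L1Md_F3, 0.25 in L1Md_Gf, 0.18 in L1Md_T and -0.02 in L1Md_F2. In TET TKO it was 1.01 in L1Md_F3, 0.29 in L1Md_Gf, -0.05 in L1Md_F, -0.13 in L1Md_F2 and -0.75 in L1Md_T. Between TET TKO and wild-type the L1Md_A difference was 0.22 ± 0.23 (adjusted p = 0.57, 21.5% of families called). In shEmpty cells L1Md_A bound minus unbound was -0.10 ± 0.17 for TET TKO against wild-type (adjusted p = 0.80, 20.6% called).

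In DNMT TKO, with bound and unbound taken from the same list, the picture was otherwise. Bound integrants were at 282 ± 17.8 CPM before knockdown and 1043 ± 135 after, and unbound ones at 154 ± 7.57 and 583 ± 73.4 (n = 3). The rise was 1.89 ± 0.12 for bound and 1.92 ± 0.08 for unbound integrants, and the difference was -0.03 ± 0.15 (adjusted p = 0.87, 55.0% of families called). The difference between DNMT TKO and wild-type in this contrast was -0.71 ± 0.21 (adjusted p = 0.015, 28.0% called). In shEmpty cells, bound integrants were higher in DNMT TKO than in wild-type by 1.39 ± 0.12, while unbound ones gave -0.09 ± 0.07 (adjusted p = 0.47). Bound minus unbound was 1.47 ± 0.15 (adjusted p = 3e-07, 30.7% called). In L1Md_F, L1Md_F2 and L1Md_F3 the same difference was negative, at -0.61, -0.86 and -0.84 (adjusted p = 0.0086, 0.00011 and 0.00056). It was 0.15 ± 0.27 in L1Md_T and -0.36 ± 0.16 in L1Md_Gf (adjusted p = 0.75 and 0.088). Length differed alongside: 2292 of 2864 bound and 961 of 13351 unbound L1Md_A integrants were 5 kb or longer. On knockdown in DNMT TKO, the long bound ones went from 257 to 958 CPM on average and the long unbound ones from 48.0 to 215. In wild-type these went from 96.8 to 302 and from 55.9 to 110 CPM.

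Integrants with both KAP1 and H3K9me3 were at the extremes of this pattern. Their sum rose by 2.03 in wild-type, 1.85 in DNMT TKO and 3.55 in TET TKO, and was 1.85 higher in DNMT TKO than in wild-type shEmpty cells. With KAP1 and no H3K9me3 the values were 1.18, 1.99, 2.78 and 0.61. With neither they were 0.99, 1.90, 2.34 and -0.09, the last with an adjusted p of 0.49. Rows without a KAP1 region that abutted a bound row of the same chain gave 1.74 in wild-type and 1.29 for DNMT TKO against wild-type, close to the bound rows. Chains with no KAP1 region gave 0.95 and -0.22 (adjusted p = 0.04). Among the long integrants with both marks that were tested, 330 of 1171 rose in wild-type and 275 were higher in DNMT TKO shEmpty cells. Among those with no KAP1 region the numbers were 83 and 40 of 671 (12.4% and 5.96%), beside 12.1% and 3.48% of all elements.

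**Figure D3:**
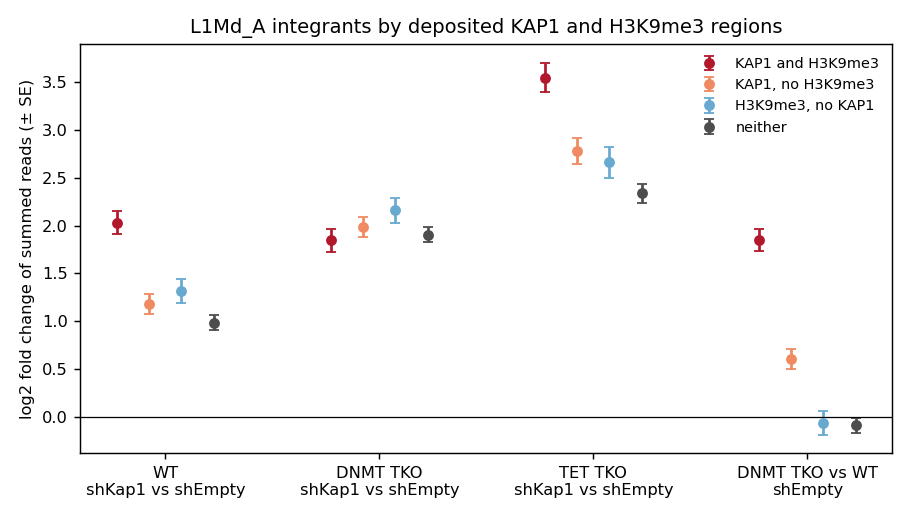
Log2 fold change of the summed reads (y axis, bars are SE) of L1Md_A integrants in 4 classes of KAP1 and H3K9me3 overlap, for 4 contrasts on the x axis. The values of the classes run from 0.99 to 2.03 in wild-type and from 2.34 to 3.55 in TET TKO, lie between 1.85 and 2.16 in DNMT TKO, and run from -0.09 to 1.85 for DNMT TKO against wild-type shEmpty cells.

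Calls also varied with the number of copies of the promoter sequence. The share of tested long integrants higher in DNMT TKO than in wild-type shEmpty cells was 2.04% with 0 copies, 8.58% with 1, 14.9% with 2, 24.2% with 3 and 37.6% with 4 or more. In wild-type knockdown the shares called higher were 11.5%, 15.5%, 16.2%, 24.7% and 38.6%, and in TET TKO knockdown 20.1%, 27.8%, 37.1%, 42.1% and 56.4%. In DNMT TKO knockdown they were 49.1%, 50.6%, 54.8%, 63.3% and 62.0%. The median log2 change there did not rise with copies, at 2.28, 2.07, 2.05, 2.23 and 2.00 in the same order. From 0 copies to 4 or more, the median went from 0.92 to 2.83 in wild-type knockdown. In TET TKO knockdown it went from 2.04 to 4.27. Among KAP1-bound integrants, those with 0 copies were higher in DNMT TKO shEmpty cells in 1.53% of 196 cases and those with at least 1 copy in 22.9% of 1659. Among integrants with at least 1 copy, 9.62% of 291 without a KAP1 region were called. Integrants with both reading frames open were called in 29.9% of 635 cases and the others in 12.4% of 1853. KAP1 overlap differed alongside, at 89.3% of all long integrants with both frames open and 66.0% of the others. With both frames open, 31.9% of 577 with a KAP1 region were called and 10.3% of 58 without. Over all tested elements the shares were 3.48% for DNMT TKO against wild-type and 12.1%, 14.7% and 15% for the wild-type, TET TKO and DNMT TKO knockdowns. The share at 0 copies was thus near that of all elements in wild-type knockdown and below it in DNMT TKO shEmpty cells. These shares were not tested against each other.

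**Figure D4:**
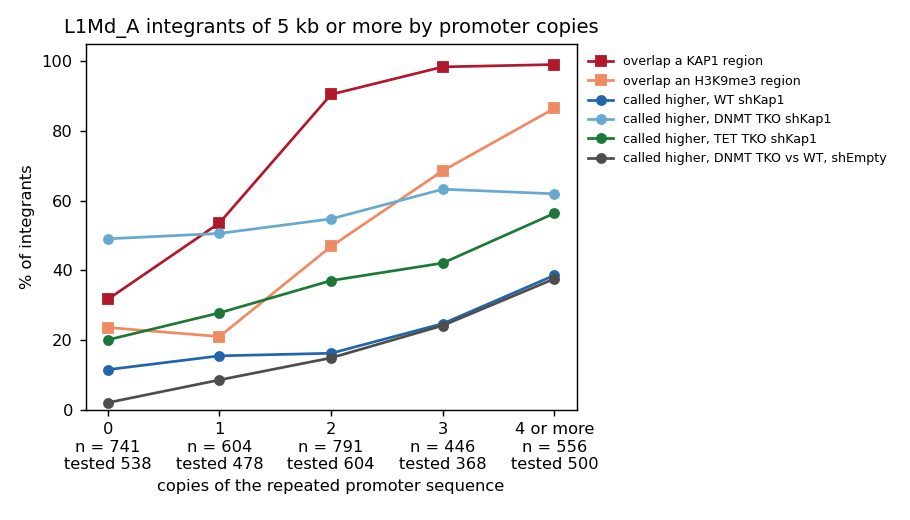
Share of L1Md_A integrants of 5 kb or more (y axis, percent) by copies of the shared promoter sequence (x axis, with the number of integrants and of tested integrants). Squares are overlap with deposited regions over all integrants and circles are calls over tested ones. The share called higher in DNMT TKO shEmpty cells goes from 2.04% to 37.6%.

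Reads were spread over many integrants: a tested integrant had a median of 38 reads in all libraries, and the 6 with most reads held 4.40% of L1Md_A reads. Values of single integrants therefore rest on few reads, and a group with no read is set at 3 reads over the group for a bound on the fold. The integrants below were named by fixed rules of read number and size of change.

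Several had few or no reads in wild-type shEmpty cells and were transcribed in DNMT TKO without knockdown. Integrant 1 (chr3:90902859-90909066, plus strand, outside genes) lay in a chain with 15 copies of the promoter sequence in its first 3 kb, the only part searched. It was at 0.056, 0 and 0.071 CPM in wild-type shEmpty and at 13.3, 13.6 and 16.2 in DNMT TKO shEmpty. The wild-type shEmpty libraries held 3 reads of it in all. In knockdown it reached 0.315, 0.909 and 1.76 CPM in wild-type. So the wild-type knockdown libraries stayed below every DNMT TKO library. Integrant 6 (chr5:68604421-68613477, minus strand, outside genes, both reading frames open) had no read in wild-type shEmpty and 7.72, 7.11 and 8.06 CPM in DNMT TKO shEmpty, at least 189-fold higher. Integrant 23 (chr2:21917585-21924173, minus strand, both frames open) had no read in wild-type shEmpty and 9.24, 7.80 and 1.58 CPM in DNMT TKO shEmpty, at least 154-fold higher.

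Integrant 4 (chr6:66950612-66959636, minus strand) lies within Gng12 on the opposite strand, outside its exons. It had 14 copies in its first 3 kb and both frames open. Gng12 codes for a G protein gamma subunit. The integrant was at 5.69, 8.53 and 6.32 CPM in DNMT TKO shEmpty and at 12.1, 12.1 and 12.7 with shKap1. In wild-type it went from 0, 0 and 0.035 to 1.41, 4.11 and 2.77 CPM, and in TET TKO from no read to 3.61 and 3.80, at least 67.9-fold higher. All knockdown libraries lay above the shEmpty libraries of their genotype. In TET TKO this was a condition of the rule for rises, by which the integrant was also named. Gng12 itself changed by 0.72 ± 0.13 in wild-type knockdown, under 2-fold.

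Other integrants were under 0.2 CPM in DNMT TKO shEmpty cells and rose on knockdown. Integrant 12 (chr7:11942853-11949051, minus strand, outside genes) had no KAP1 region and no counted copy of the promoter sequence. It had no read in DNMT TKO shEmpty and 2.64, 8.93 and 3.34 CPM with shKap1, at least 124-fold higher. It also rose in wild-type by 4.73 ± 0.51, and in TET TKO it went from 0.070 and 0 to 4.40 and 5.75 CPM. Integrant 16 (chr7:30416109-30421149, plus strand), likewise unbound, was at 0.056, 0.107 and 0 CPM in wild-type and 3.88, 4.03 and 4.21 with shKap1. Its shKap1 libraries held 2.83, 2.26 and 2.60 CPM in DNMT TKO and 5.37 and 5.39 in TET TKO. Both were separate from shEmpty in every genotype. This was a condition of naming in DNMT TKO for integrant 12 and in TET TKO for integrant 16. Integrant 8 (chr4:61339727-61349618, minus strand), 4557 bp from Mup18 and bound by KAP1 with H3K9me3, went from no read to 4.54 and 3.70 CPM in TET TKO, at least 75.5-fold higher. It was at 0.102, 0.069 and 0.193 CPM in DNMT TKO shEmpty, called higher than in wild-type shEmpty, which had no read (edgeR adjusted p = 0.0067), and at 0.720, 0.517 and 0.890 CPM with shKap1.

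Integrant 2 (chr9:24728330-24729846, minus strand), a 1517 bp piece outside genes with no KAP1 region, was read in wild-type and TET TKO and hardly in DNMT TKO. It was at 0.444, 1.28 and 1.49 CPM in wild-type shEmpty and rose to 10.4, 15.2 and 17.0. In TET TKO it rose from 0.634 and 0.676 to 31.3 and 28.7 CPM. In DNMT TKO it had no read with shEmpty and 0.048, 0 and 0.074 CPM with shKap1. Integrant 18 (chr2:95094443-95101263, minus strand), with a KAP1 region and an H3K4me3 peak but no promoter copy, was at 0.944, 1.07 and 0.849 CPM in wild-type shEmpty and 0.051, 0.035 and 0 in DNMT TKO. Knockdown brought it to 0.913, 1.41 and 0.964 CPM in DNMT TKO and left 0.996, 0.520 and 0.853 in wild-type.

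Falls were few. Integrant 11 (chrX:57449451-57453530, plus strand, outside genes) went from 1.499, 0.818 and 0.814 CPM to no read in wild-type shKap1, at least 21.2-fold lower. In DNMT TKO it was at 0.965, 1.28 and 1.503 CPM and then 0.528, 1.60 and 1.34. In TET TKO it was at 0.599 to 0.939 CPM with shEmpty and 0.308 to 0.324 with shKap1, not called (edgeR adjusted p = 0.063). Integrant 19 (chr19:39316997-39323748, minus strand), within Cyp2c29 on the opposite strand, was higher in TET TKO than in wild-type shEmpty cells, at 1.37 and 2.03 CPM against 0, 0.036 and 0.035. Cyp2c29, which codes for a cytochrome P450, was called higher there as well (edgeR adjusted p = 0.00086, where 10.5% of genes were called), with 0.451 and 0.458 CPM in TET TKO and no read in wild-type shEmpty. Integrant 3 (chr19:15979055-15979200, minus strand), a 146 bp row in an exon of Psat1 on the same strand, had 4.49 to 5.72 CPM in wild-type shEmpty and 5.20 to 7.20 with shKap1. Reads of such rows cannot be told apart from those of the gene, and with all gene intervals left out the summed change in wild-type was 1.35.

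5hmC was higher with shKap1 over KAP1 regions on L1Md_A in the first set of wild-type hMeDIP-seq libraries. There was 1 library per condition and no test. The second set has labels and file names that disagree about which library is which, and its 2 readings give opposite signs. Among 2739 regions with at least 10 input reads, 5hmC over input, as a log2 ratio, had a median of 0.75 with shEmpty and 1.83 with shKap1. The median change was 1.05 (quartiles 0.527 and 1.502) and 89.8% of regions were higher, against 75.7% of KAP1 regions on no L1Md_A. It was 1.17 on long integrants with H3K9me3, 0.93 on those without, and 0.78 on integrants under 5 kb. KAP1 regions on no L1Md_A gave 0.59, those on L1Md_T 0.48 and those on L1Md_F 0.63. On integrants called higher in wild-type knockdown it was 1.21, and 1.05 on the other tested integrants. Read as labelled, the second set gave -1.48, and read by its file names 1.48. By file names, its inputs had 54720 of 5849673 and 57085 of 6213882 region reads on L1Md_A KAP1 regions. Its 5hmC libraries then had 148815 of 10261271 with shEmpty and 540835 of 12571208 with shKap1. The first-set inputs had 40964 of 4590132 and 53629 of 6522892. As labelled, an input of the second set would hold the 148815 reads. Which reading is right was not tested. In the first set the change was 0.66 with totals over H3K4me3 regions and 0.68 without the region with most 5hmC reads.

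**Figure D5:**
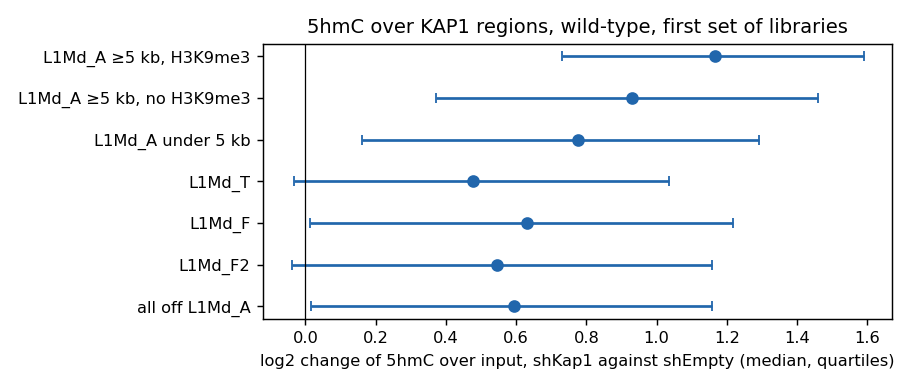
Log2 change of 5hmC over input with shKap1 against shEmpty (x axis) over KAP1 regions in wild-type cells, first set of libraries, with points at medians and bars at quartiles over regions. The medians are 1.17, 0.93 and 0.78 for the 3 L1Md_A classes and 0.59 for regions on no L1Md_A.

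Genes that act on LINE-1 RNA or its reverse transcription were also measured. Of 11 tested genes of a list of 13, none rose and 1 fell in wild-type knockdown, where 17.4% of all genes were called in either direction. The one that fell was Tex19.1, which restrains LINE-1 mobilisation, with a change of -1.61 ± 0.08. Tex19.1 was higher in DNMT TKO than in wild-type shEmpty cells by 1.22 ± 0.08, where 16.3% of genes were called. In TET TKO knockdown, Mael and Piwil2, both of the piRNA pathway, rose by 1.51 ± 0.26 and 1.25 ± 0.16, the 2 of 11 called where 12.5% of all genes were. Of the 12 genes of KAP1 and H3K9 methylation, all tested and 1 of them (Atf7ip) listed under 2 identifiers, Trim28 itself fell in each knockdown and Suv39h1, an H3K9 methyltransferase, rose by 1.21 ± 0.11 in wild-type. The 3 tested genes of the HUSH list, whose complex silences young LINE-1 elements, changed by -0.22 to 0.70 in the knockdowns, under 2-fold. Dnmt3a, a de novo DNA methyltransferase, rose by 1.15 ± 0.13 in wild-type knockdown and Tet3 by 1.80 ± 0.14. They were the 1 called of 7 genes of DNA methylation and the 1 called of 4 of oxidation. In DNMT TKO knockdown none of either list was called, and in TET TKO knockdown 1 of the 7 rose.

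Markers of 2-cell-like cells, a rare state in embryonic stem cell cultures, moved with the knockdown. All 6 tested rose in each genotype, where 12.5% of all genes were called in DNMT TKO and in TET TKO knockdown. Their summed level went from 11.9 to 22.9 CPM in wild-type shEmpty to 185 to 206 with shKap1, in DNMT TKO from 5.6 to 17.7 up to 55.3 to 127, and in TET TKO from 8.3 to 9.6 up to 546 to 565. ES cell markers went from 3647 to 3858 CPM down to 2200 to 2357 in wild-type, where 3 of 7 fell and 17.4% of all genes were called. Markers of neuroectoderm went from 39.6 to 50.3 up to 106 to 125 CPM in wild-type, where 2 of 3 rose. In DNMT TKO they were at 87.0 to 107 CPM with shEmpty and 107 to 136 with shKap1. In TET TKO they were at 61.1 to 61.5 and 77.9 to 86.3, and 1 of 3 rose in each knockout. In wild-type knockdown 2 of 5 fibroblast markers rose and 1 fell, and 2 of 4 mesoderm markers fell. Of 6 endoderm markers 1 rose and 2 fell, and of 5 trophoblast markers 1 rose and 1 fell. The part of these in the L1Md_A changes was not tested.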

How the data were processed

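The authors aligned reads to mm9 (HISAT2 2.0.1 for RNA, Bowtie2 2.2.1 for ChIP and hMeDIP, per the submitters' processing notes), kept unique reads, and deposited raw counts per gene (featureCounts 1.5.1) and per repeat (bedtools 2.25, strand-specific), reads per region for hMeDIP, and peak lists with a score (MACS 1.4, SICER 1.1). Unique reads miss the parts of young elements that are identical between copies. The strand was checked: 99.3% of reads on elements inside exons were on the strand of the gene. Values in CPM are deposited counts divided by gene reads with TMM factors.

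Elements with at least 16 reads were tested with edgeR 4.0.16 (quasi-likelihood, robust, R 4.3.3), with Benjamini-Hochberg adjustment over all elements, at an adjusted p of 0.05 and 2-fold. Summed families and classes were tested in the same way by adjusted p alone. Bound minus unbound was tested with limma 3.58.1 on log2 ratios within libraries (pseudocount 0.5 CPM). For 5hmC, 1 read was added. Overlap was at least 1 bp. Peaks of H3K4me3 with a score above 50 were kept.

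Named integrants were the 6 with most reads, and, among called integrants with at least 100 reads, the 4 largest rises and 2 largest falls per knockdown without overlap between groups, and the 2 largest changes per direction for the other contrasts, 26 in all, of which those that carry the results are described. Members, lists and rules were chosen with earlier results of these data known. The chains, the promoter sequence search and the comparison with other families were added after seeing the data. Integrants of 5 kb or more on contigs outside the genome file (115) were not searched for sequences. Replicate numbers pair wild-type and DNMT TKO samples by their values over genes (correlations of deviations from 0.101 to 0.580), and not the TET TKO samples. Scripts were tested on simulated data. Analyses used pyranges 0.1.4, pysam 0.24.0 and samtools 1.23.1. Alternatives were DESeq2 1.42.0, limma-voom, other scalings and filters, a replicate block and leaving out each library.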

Additional observations from a re-analysis of the deposited data

Results flagged for a closer look

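These results differed between genotypes by a test of the difference in Kap1 knockdown itself. The summed L1Md_A change was 0.58 larger in DNMT TKO and 1.45 larger in TET TKO than in wild-type on the log2 scale. Other LINE-1 families differed as well, with 2.07 and 1.34 in L1Md_Gf. The difference between KAP1-bound and unbound L1Md_A was -0.71 in DNMT TKO against wild-type. At the level of integrants, 97 were called for DNMT TKO against wild-type and 41 for TET TKO against wild-type. By direction these were 2.04% larger and 0.529% smaller in DNMT TKO, beside 1.33% and 0.473% of all elements, and 1.03% and 0.0529% in TET TKO, beside 0.831% and 0.242%. In TET TKO the share with a larger change was thus near that of all elements, and the share with a smaller change was below it.

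Among named integrants, the DNMT TKO knockdown change minus that of wild-type was -3.91 for integrant 1, -6.38 for integrant 4, 5.38 for integrant 18, 3.81 for integrant 20 and 4.83 for integrant 25. The TET TKO change minus that of wild-type was 1.84 for integrant 2, -4.77 for integrant 19 and 2.35 for integrant 22. Integrants 1, 4, 18, 19, 20 and 25 had only 1 to 3 reads in one of the groups compared, so that these sizes are imprecise. In the others a group had no read, so that the fitted size depends on the prior count and is no bound. These were, for DNMT TKO, integrants 6 (-6.99), 8 (-5.06), 9 (-5.65), 11 (7.46) and 13 (5.13), and for TET TKO, integrants 11 (6.31), 17 (5.81), 20 (7.40), 21 (7.17) and 25 (5.43).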

How the results depend on the processing

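The summed L1Md_A reads kept their direction and call under every alternative run, except DNMT TKO minus wild-type knockdown, which was 0.42 with TMM on repeat counts and lost its call without 2 single libraries (given above). Counts of called integrants (total over both directions, in the order wild-type, DNMT TKO and TET TKO knockdown, DNMT TKO minus and TET TKO minus wild-type knockdown, DNMT TKO and TET TKO against wild-type) were 328, 634, 484, 22, 10, 280 and 21 with the DESeq2 Wald test. With at least 1 read they were 407, 737, 46, 18, 390 and 43, leaving out DNMT TKO knockdown, which stayed within 1.5 times. With at least 50 reads, DNMT TKO and TET TKO knockdown and TET TKO minus wild-type gave 1007, 756 and 15, where only 1409 integrants were tested. The cause of the DESeq2 difference was not tested.

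Leaving out each library gave 466 to 729, 1311 to 1841, 620 to 1202, 61 to 101, 12 to 45, 434 to 686 and 31 to 99 calls in the same order. The lowest came without shEmpty replicate 3 of wild-type for the first and sixth, without shEmpty replicate 1 of TET TKO for the third, without shEmpty replicate 2 of DNMT TKO for the fourth, and without shEmpty replicate 2 of TET TKO for the fifth and seventh. Calls also moved by over 1.5 times without shEmpty replicate 2 of TET TKO in the third (663), without shEmpty replicate 1 of TET TKO in the fifth (13) and seventh (33), and without shEmpty replicate 2 of wild-type in the fifth (24) and sixth (438), and shKap1 replicate 1 of TET TKO in the fifth (22). The summed changes ranged from 1.27 to 1.41, 1.76 to 1.97, 2.75 to 2.80, 0.43 to 0.65, 1.364 to 1.495, 0.64 to 0.76 and -0.93 to -0.82. Bound minus unbound ranged from 0.64 to 0.74 in wild-type, -0.04 to -0.01 in DNMT TKO, 0.88 to 0.92 in TET TKO and 1.438 to 1.504 for DNMT TKO against wild-type.

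The replicate block, which uses the pairing, changed no call of the sums or of bound minus unbound and moved no count of integrants by over 1.5 times: it gave 650, 1739 and 1137 called integrants in the 3 knockdowns against 707, 1830 and 1187 without it, summed changes of 1.31, 1.90 and 2.77, and bound minus unbound of 0.68, -0.03 and 0.90. Bound minus unbound in DNMT TKO knockdown, not past the test, changed sign to 0.067 when 25% of the region had to overlap. Without unbound rows that abut a bound row, an alternative chosen after seeing the data, it was 0.73, -0.03 and 0.95 in the knockdowns and 1.60 for DNMT TKO against wild-type.

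The share of integrants with a KAP1 region was 16.5% with 25% of the region and 17.0% with 100 bp, and 76.0% of integrants of 6 kb or more. The 5hmC change was 1.12 with at least 30 input reads, 0.66 with totals over H3K4me3 regions, 0.68 without the region with most 5hmC reads, 0.92 without input, -1.48 in the second set by labels and 1.48 by file names. Depth limits single integrants: most had under 65 reads in all libraries.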
